A study of Homo sapiens with 12 samples.

Results

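Accessible chromatin was examined at 10 genes of the canonical Wnt pathway, namely CTNNB1, APC, AXIN1, AXIN2, GSK3B, LEF1, TCF7, TCF7L1, TCF7L2 and LRP6, in a pancreatic cancer line before and after selection for resistance to an inhibitor of lactate dehydrogenase A (LDHA). These 10 genes, of 59084 in the RefSeq gene table, were represented by every peak that overlapped the gene span extended by 5 kb on each side. Peaks of all libraries that overlapped were merged into regions, which gave 128 member regions of 178040 in all. The set was built around CTNNB1 because this gene held a strong peak in resistant lists and none in parental lists. That difference at CTNNB1 is therefore given as a description without a test, and the tests below ask whether the other 9 genes showed anything alike.

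The assay was ATAC-seq, which reads out open DNA through the adapters that Tn5 transposase leaves in it, and the cells were Miapaca2 (MIAPaCa2), a long-established line of pancreatic ductal adenocarcinoma. Parental cells and the LDHA inhibitor resistant cells derived from them by prolonged exposure to sodium oxamate were each profiled untreated and under the LDHA inhibitor, with 3 libraries in each of the 4 groups. The resistant cells are 1 selected population, so the 6 resistant libraries share that selection, and no source used here says that replicates came from separate cultures. A deposited list gives the peaks of 1 library, and read counts were not used here.

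In the canonical pathway, β-catenin, the product of CTNNB1, is held at a low level by a destruction complex in which the scaffolds APC, AXIN1 and AXIN2 bring it to the kinase GSK3B. A Wnt ligand bound to a Frizzled receptor and the co-receptor LRP6 stops that complex, and β-catenin then enters the nucleus and joins the DNA-binding factors LEF1, TCF7, TCF7L1 and TCF7L2. The pathway is known above all from colorectal cancer, where APC is often lost, and AXIN2 is one of its own target genes and feeds back on it.

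The promoter windows of the members were taken from RefSeq on GRCh38.p14 as 250 bases before and 50 after each annotated start, and 12 windows of 8 members were matched. The 5 shown here are those in which the peak lists drew a distinction: the CTNNB1 window, which was open in 12 libraries while the interior of the gene differed, a pair of alternative APC starts of which 1 was open, and the AXIN1 window and the inner TCF7L2 window, which were open in 9 libraries. They are written 5′ to 3′ on the strand of the gene, and capitals mark the GC box (GGGCGG or CCGCCC) and the CCAAT box (CCAAT or ATTGG), searched on both strands.
CTNNB1 (chr3:41199255-41199554, plus strand): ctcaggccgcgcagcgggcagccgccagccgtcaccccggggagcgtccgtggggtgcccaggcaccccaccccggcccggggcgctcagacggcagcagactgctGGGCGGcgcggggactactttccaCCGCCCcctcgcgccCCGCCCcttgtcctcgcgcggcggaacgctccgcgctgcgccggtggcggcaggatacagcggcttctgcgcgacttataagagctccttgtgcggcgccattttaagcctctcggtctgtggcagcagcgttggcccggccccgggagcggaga
APC, outer start (chr5:112707248-112707547, plus strand): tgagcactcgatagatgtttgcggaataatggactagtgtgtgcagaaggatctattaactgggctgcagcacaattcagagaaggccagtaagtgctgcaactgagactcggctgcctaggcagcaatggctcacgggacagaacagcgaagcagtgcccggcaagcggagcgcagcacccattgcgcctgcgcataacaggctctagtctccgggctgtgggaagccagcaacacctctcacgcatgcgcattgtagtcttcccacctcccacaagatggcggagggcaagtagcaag
APC, inner start (chr5:112737635-112737934, plus strand): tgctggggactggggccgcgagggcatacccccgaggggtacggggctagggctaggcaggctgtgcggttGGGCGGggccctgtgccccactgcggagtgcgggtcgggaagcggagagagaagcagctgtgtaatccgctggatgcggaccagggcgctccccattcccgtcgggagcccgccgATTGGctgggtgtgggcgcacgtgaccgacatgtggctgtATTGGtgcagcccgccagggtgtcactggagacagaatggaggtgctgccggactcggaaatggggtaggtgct
AXIN1 (chr16:352674-352973, minus strand): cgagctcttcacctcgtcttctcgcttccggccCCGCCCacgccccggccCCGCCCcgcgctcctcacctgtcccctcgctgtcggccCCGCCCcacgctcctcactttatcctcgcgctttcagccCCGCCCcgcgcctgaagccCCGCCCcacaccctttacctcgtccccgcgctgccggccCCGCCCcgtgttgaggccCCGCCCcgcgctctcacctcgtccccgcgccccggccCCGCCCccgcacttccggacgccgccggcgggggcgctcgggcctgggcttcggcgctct
TCF7L2, inner start (chr10:113126383-113126682, plus strand): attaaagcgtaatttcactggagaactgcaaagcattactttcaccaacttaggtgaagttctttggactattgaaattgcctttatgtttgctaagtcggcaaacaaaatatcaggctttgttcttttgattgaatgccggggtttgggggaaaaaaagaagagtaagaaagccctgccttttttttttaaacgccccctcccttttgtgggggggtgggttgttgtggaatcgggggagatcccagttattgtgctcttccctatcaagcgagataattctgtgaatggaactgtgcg

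The CTNNB1 window held 39 CpG dinucleotides and 3 GC boxes, and the AXIN1 window 44 CpG dinucleotides and 8 GC boxes, against a median of 14 CpG dinucleotides over the 34961 windows of the table. A GC box was present in 45% and a CCAAT box in 34.6% of all windows. The core motif of the TCF and LEF factors, searched as TCAAAG or CTTTGA, occurred in 0 of the 12 member windows and in 12.9% of all windows. A peak overlapped the CTNNB1, GSK3B, TCF7L1, outer APC and outer TCF7L2 windows in 12 libraries, as it did in 35.6% of all windows. No library had a peak over the LEF1 window, the inner APC window, the first of the pair of TCF7 windows or the innermost TCF7L2 window, a state shared with 50.7% of all windows, and 1 treated parental library had one over the other TCF7 window. An empty window did not mean that no peak was near. A region called in 12 libraries lay 485 bp from the first TCF7 start. The recurrent LEF1 region, called in 11 libraries, lay over an end of the gene span but outside the window. At AXIN1 the window was open in 3 of 3 untreated parental, 0 of 3 treated parental, 3 of 3 untreated resistant and 3 of 3 treated resistant libraries. The merged AXIN1 region around that window was called in 12 libraries. It spanned 2367 bp, and the treated parental peaks in it did not reach the window. At the inner TCF7L2 start the window was open in 2 untreated parental, 1 treated parental and 6 resistant libraries, again inside a region called in 12 libraries. The share of all windows with either pattern was not counted. Median peak width averaged 214 bp in treated parental, 271 bp in untreated parental, 374 bp in untreated resistant and 356 bp in treated resistant libraries. Its part in these patterns was not tested.

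The lists held between 46401 and 63259 peaks, and depth is known only relative to the shallowest library, at 1.33 to 2.77 in parental and 1.00 to 1.85 in resistant libraries. Resistant lists covered more of the genome, 21.3 to 33.7 Mb against 13.8 to 25.5 Mb, and their smallest peak was 94 to 124 bp wide against 67 to 87 bp. Peak width therefore moved with phenotype, and its part in any gain of covered bases cannot be told apart from the phenotype itself. The median gene had a log2 ratio of covered bases of 0.43 for resistant over parental and -0.25 for treated over untreated libraries, and each member is set against these shifts. Peaks lay within 1 kb of the ends of KRT8, KRT18 and VIM in 12 libraries, of KRT19 in 10, of EPCAM in 1 and of CDH1 in 0. The blood genes PTPRC and CD3E and the liver gene ALB had a peak within that distance in 0 libraries.

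CTNNB1 (chr3:41199505-41240443) carried 6 regions, of which 1 was called in 12 libraries, 1 in 6 and 4 in a single library each. The region called in 12 libraries lay over the promoter at chr3:41198763-41200143. Its fold over the local background, as the authors' peak caller gave it, was 6.51, 7.42 and 5.94 in untreated parental, 5.30, 5.23 and 4.65 in treated parental, 7.51, 8.28 and 7.06 in untreated resistant, and 8.47, 8.23 and 7.82 in treated resistant libraries. All treated parental values lay below all others, and the parental and resistant ranges overlapped only through untreated parental replicate 2. Its strength, a percentile within its own list by -log10 q with 100 as the strongest peak, was 73.5 ± 3.98 on the parental and 83.2 ± 4.54 on the resistant side (SD, n = 6 each). Both are descriptions, since they come from the contrast for which the gene was chosen.

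The second recurrent CTNNB1 region lay inside the gene at chr3:41231653-41232032, 32148 bp from its start and 8411 bp from its other end, and had a peak in 6 of 6 resistant against 0 of 6 parental libraries. Whether these 380 bp fall in an exon or an intron was not analysed here. The fold was 30.5, 35.2 and 35.8 in untreated resistant and 33.2, 34.8 and 34.9 in treated resistant libraries, and the untreated and treated values overlapped. The -log10 q lay between 250 and 436. Between 7 and 17 peaks of the whole list had a higher fold, which placed the region in the top 0.0149% to 0.0305% of peaks, while the median peak of those lists had a fold of 4.03 to 4.81. The region was thus far stronger than the promoter of its own gene in every resistant library. The peak began at the same base or 1 bp later in the 6 libraries and ended at the same base in all of them. At the CTNNB1 promoter, by contrast, the starts varied over 350 bp and the ends over 452 bp. Whether a peak with such fixed borders stands for accessible chromatin at this place was not tested, and every count below that includes it carries that limit. The other 4 CTNNB1 regions, of fold 3.04 to 3.36, were each called in 1 library, 3 times in a resistant and once in a parental one.

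**Figure D1:**
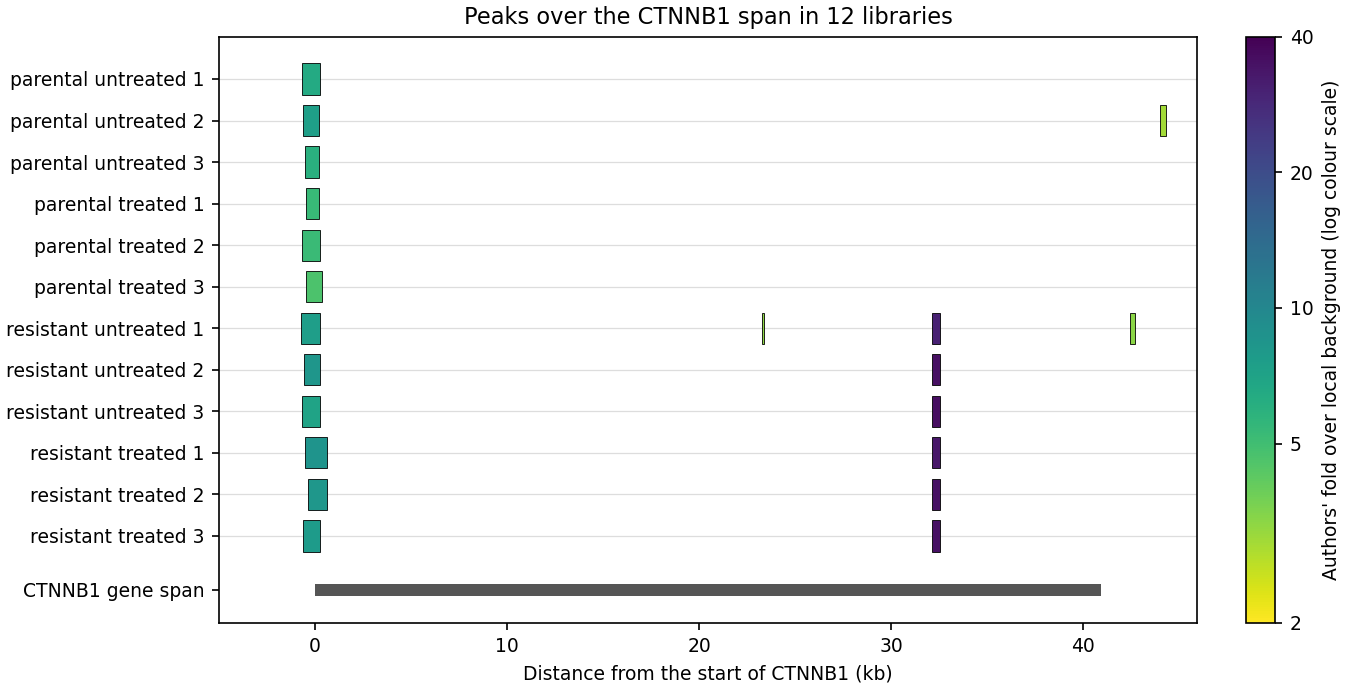
Peaks over CTNNB1 in each of the 12 libraries, placed by distance from the start of the gene in kb and coloured by the authors' fold over local background; the grey bar is the gene span. The promoter peak stands in every library, and the peak 32.148 kb inside the gene, of fold 30.5 to 35.8, stands in the 6 resistant libraries and in none of the parental ones.

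Over the genome, 209 of the 178040 regions were called in 6 resistant and 0 parental libraries, a share of 0.117%, and 0.0258% had the reverse pattern. The CTNNB1 region was first of the 209 by median fold, at 34.9 against a median of 4.16 and a range of 2.21 to 34.9. It was followed by regions inside GRM7 (median fold 33.8), a glutamate receptor gene, nearest to the pseudogene SLC44A3P1 (28.4) and nearest to LOC107985963 (25.1). Of the 209 regions, 10 had a median fold above 10 and 6 above 20, so most regions of this pattern were weak. Since these regions were selected by presence in the same libraries, their order is a description.

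**Figure D2:**
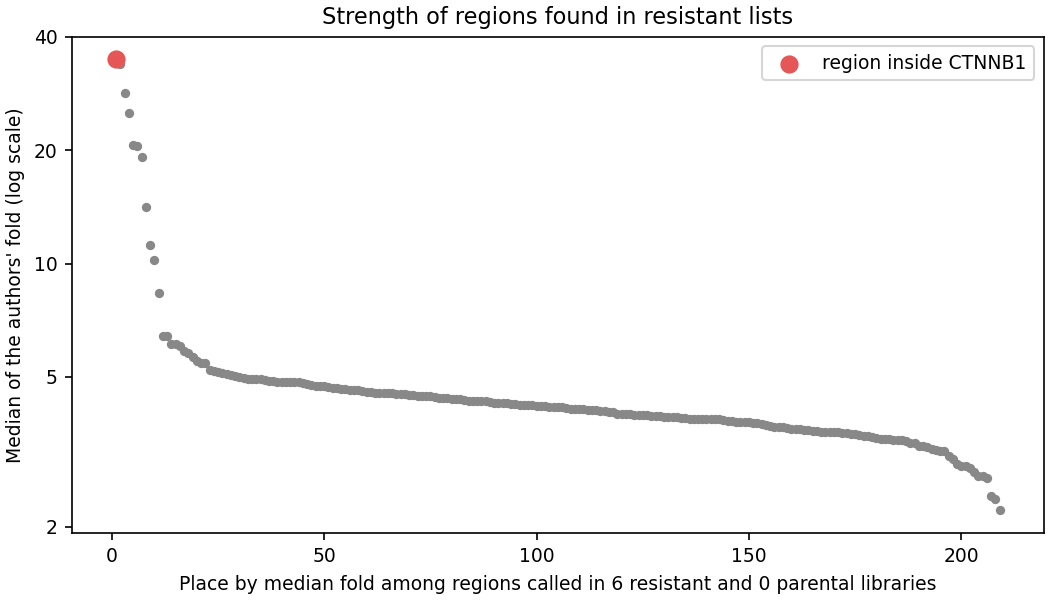
Median of the authors' fold (log scale) for the 209 regions called in 6 resistant and 0 parental libraries, in order of fold; each point is a region and the red point is the one inside CTNNB1. The CTNNB1 region stands first at 34.9, and all but 10 regions lie at or below 10.

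None of the other 9 genes had a region of that kind. Of the 128 member regions, 1 was called in 6 resistant and 0 parental libraries, the CTNNB1 region itself, and 0 had the reverse pattern. Most member regions were sporadic, with 81 called in a single library (63.3%, against 59.5% of all regions) and 18 in 12 libraries (14.1%, against 13.6%). Among regions of at least 2 libraries, 3 of 47 member regions (6.38%) were found in resistant lists only, against 9.26% of all such regions. Beside CTNNB1, both were in GSK3B and were weak. One (chr3:120072660-120073294) was called in 2 untreated and 2 treated resistant libraries, with folds of 3.57, 3.30, 3.61 and 3.81, and the other (chr3:120059696-120060362) in 2 treated resistant libraries, with folds of 3.54 and 3.77. In parental lists only there were 2 of the 47 (4.26%), in AXIN1 (chr16:323884-324189) and in TCF7L1 (chr2:85212232-85212367), each in 1 untreated and 1 treated parental library, against 7.21% of all such regions.

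A strict comparison of groups asked for all-or-none regions, with a peak in each of the 3 libraries on one side and in 0 of 3 opposite. Between untreated resistant and untreated parental libraries this was met by 1 of the 128 member regions, the CTNNB1 region, against 0.443% of all regions gained and 0.280% lost. Between treated resistant and treated parental libraries 2 member regions were gained, against 1.41% of all regions, and 0 were lost, against 0.433%. These were the CTNNB1 region and an AXIN1 region (chr16:327182-327777). The AXIN1 region had folds of 3.55, 3.37 and 3.59 in the treated resistant libraries, but it was also called in untreated parental replicate 1, at 3.97, and in untreated resistant replicate 3, at 3.14. Oxamate itself gained or lost 0 member regions, where 0.117% of all regions were gained and 0.921% lost in parental cells, and 0.138% gained and 0.159% lost in resistant cells. The design sets the smallest p of such a comparison of 3 against 3 libraries at 0.1 by exact permutation.

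Regions of intermediate frequency were tested for presence by Fisher's exact test of 6 against 6 libraries, with Benjamini-Hochberg adjustment over 9507 regions called in 5 to 7 libraries. By phenotype, 0 of the 6 testable member regions beside CTNNB1 passed, and 0 did at an unadjusted p under 0.05, where the corresponding shares of all regions were 0% and 11.4%. The smallest p belonged to the AXIN1 region named above, with a peak in 4 of 6 resistant against 1 of 6 parental libraries (two-sided Fisher's exact p = 0.242, adjusted p = 0.561). By treatment, 0 of 7 passed and 0 had an unadjusted p under 0.05, against 0% and 1.39% of all regions. The 209 regions called in 6 resistant and 0 parental libraries were among the 9507, and none of them passed by phenotype. After adjustment the phenotype test thus could not call even a full split, and its 0 does not separate the members from the CTNNB1 pattern.

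**Figure D3:**
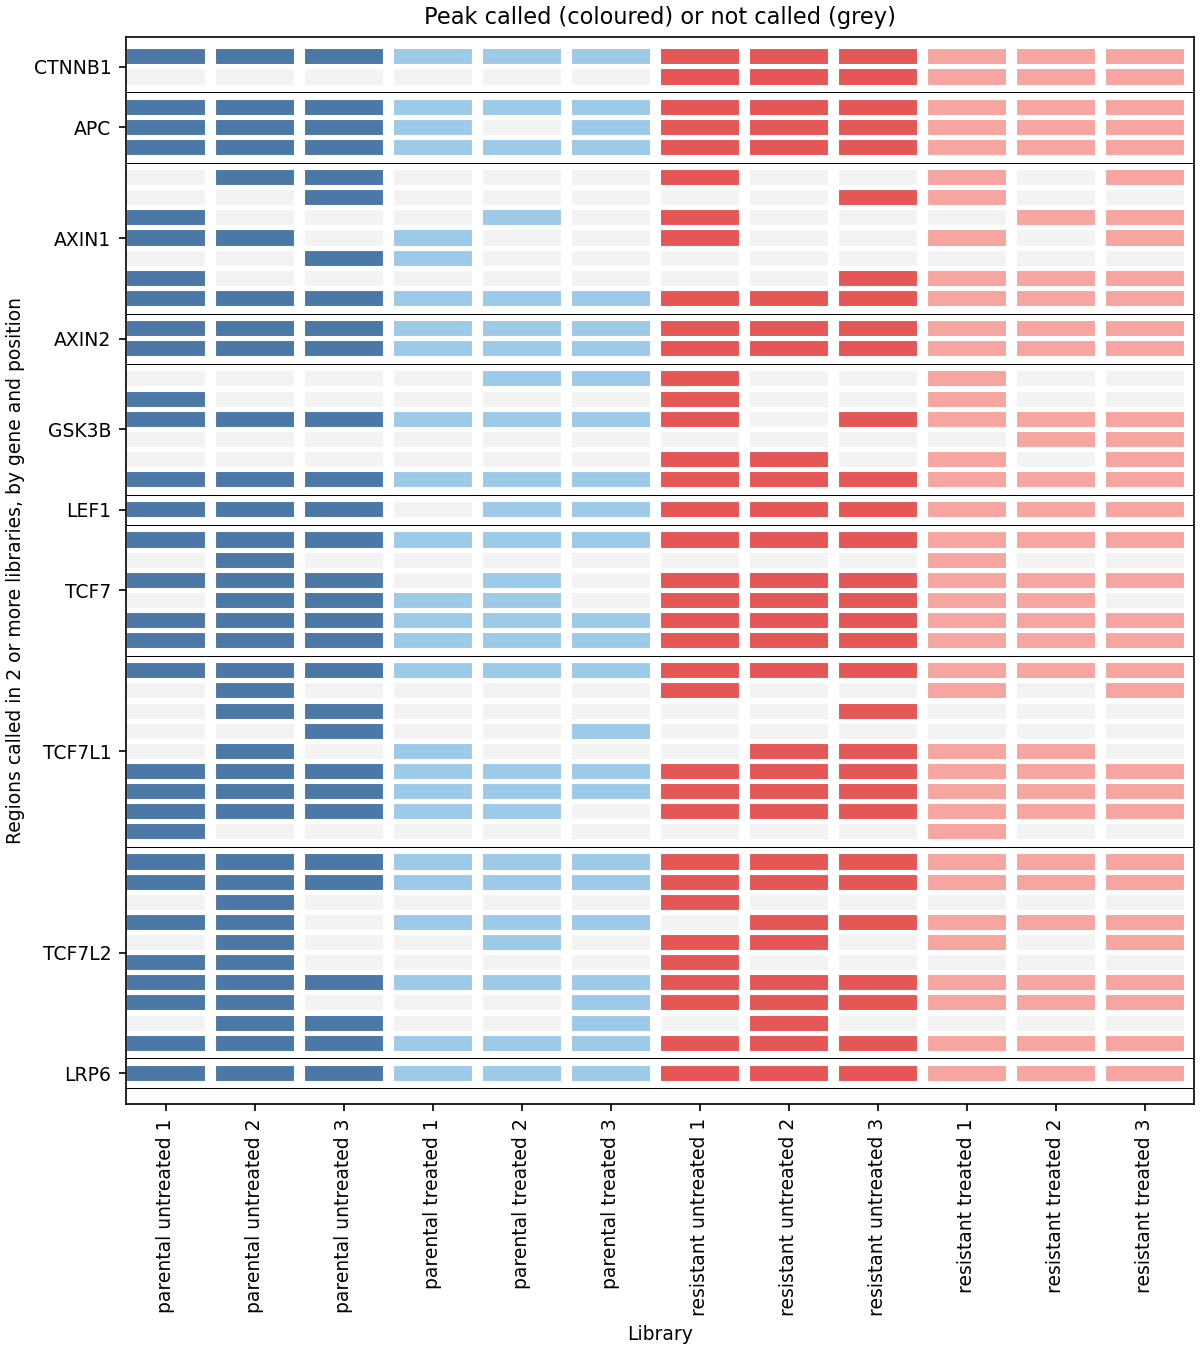
Member regions called in at least 2 libraries, as rows ordered by gene and position, in the 12 libraries as columns; a coloured cell is a called peak and a grey cell none, and colours mark the 4 groups. The second CTNNB1 row is the only one filled in all 6 resistant and empty in all 6 parental libraries.

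The extent of open chromatin at each gene was measured as the number of bases covered by peaks over the gene span with 5 kb on each side. At CTNNB1 it was 939, 1114 and 726 bases in untreated parental, 654, 919 and 825 in treated parental, 1788, 1230 and 1365 in untreated resistant, and 1547, 1423 and 1281 in treated resistant libraries. All 6 resistant values lay above all 6 parental values, with means of 1439 ± 204 and 862.8 ± 165 bases (SD, n = 6). The internal region, of which it was not tested whether it is accessible chromatin, supplied 379 or 380 of the bases in each resistant library, and the promoter region alone covered 850 to 1168 bases in resistant and 654 to 939 bases in parental libraries. None of the other 9 genes had its 6 resistant values above its 6 parental ones, a pattern met by 4.57% of the genes tested.

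By phenotype, the covered bases of 0 of these 9 genes differed at an adjusted p under 0.05 (exact permutation within treatment, Benjamini-Hochberg over 32581 genes), where 10.3% of all genes passed. At an unadjusted p under 0.05 there were 2 of 9, against 37.6% of all genes. All 9 had a higher mean in resistant libraries, with a median log2 ratio of 0.39, which is close to the 0.43 of all genes. As bases per Mb covered in the same list, 5 were higher and 4 lower, and again 0 of 9 passed, as did 0% of all genes. The 4 that turned were APC, GSK3B, TCF7L2 and LRP6.

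Among the scaffolds of the destruction complex, AXIN2 had the smallest p. Its covered bases were 1534, 1244 and 967 in untreated parental, 802, 724 and 749 in treated parental, 1768, 1622 and 1444 in untreated resistant, and 1845, 1600 and 1577 in treated resistant libraries. Resistant libraries were higher by 639.3 bases (exact permutation p = 0.0100, adjusted p = 0.0611), with an overlap only between untreated groups, and by 11.28 bases per Mb (exact permutation p = 0.0700, adjusted p = 0.276). At APC the values were 1473, 1596 and 1854 in untreated parental, 1021, 1267 and 1433 in treated parental, 1835, 1675 and 1868 in untreated resistant, and 1702, 1654 and 1568 in treated resistant libraries. Resistant libraries were higher by 276.3 bases (exact permutation p = 0.0200, adjusted p = 0.0773) but their difference per Mb was -8.449 bases (exact permutation p = 0.220, adjusted p = 0.479). AXIN1 varied widely among replicates, with 729 to 3116 bases in untreated resistant libraries, and its difference of 1103 bases did not pass (exact permutation p = 0.0550, adjusted p = 0.134). With 1 library left out that difference ranged from 799.3 to 1461 bases. It passed only without resistant untreated replicate 2, the library with 729 bases, at 1461 bases (exact permutation, adjusted p = 0.0490). In that run 20.4% of all genes were called. The kinase gene GSK3B had 1536 to 2940 bases in parental and 1719 to 3404 in resistant libraries and differed by 181.5 bases (exact permutation p = 0.620, adjusted p = 0.712), or by 8.5 to 381.8 with 1 library left out.

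LEF1 was the least covered of the nuclear factor genes. It had 834, 773 and 235 bases in untreated parental, 0, 217 and 106 in treated parental, 1185, 1194 and 480 in untreated resistant, and 1059, 166 and 706 in treated resistant libraries. Its only recurrent region (chr4:108167479-108169365), over the 5′ end of the gene span, was missing from treated parental replicate 1 alone. The phenotype difference of 437.5 bases did not pass (exact permutation p = 0.05, adjusted p = 0.126). TCF7L1 covered 1112 to 3070 bases in parental and 2384 to 4460 bases in the resistant ones (difference 954.5 bases, exact permutation p = 0.0550, adjusted p = 0.134). TCF7 differed by 640.7 bases (exact permutation p = 0.0850, adjusted p = 0.174) and TCF7L2 by 320.7 bases (exact permutation p = 0.460, adjusted p = 0.568), or 46.75 to 513.7 with 1 library left out. The co-receptor gene LRP6 differed least, by 34.83 bases (exact permutation p = 0.665, adjusted p = 0.753), with 683 to 1023 bases in parental and 739 to 1075 in resistant libraries.

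With a smallest p of 0.005, the permutation test can call a gene only when at least 10.0% of all genes are called together. Limma on log2(covered bases + 100) was therefore added after these values were seen. Limma called 2 of the 9 genes by phenotype, where it called 29.1% of all genes. These were AXIN2, at a log2 difference of 0.70 ± 0.11 (SE, limma adjusted p = 0.00354), and TCF7L1, at 0.56 ± 0.18 (SE, limma adjusted p = 0.0355). With each library centred on its median gene, limma called 0 of 9, where 7.00% of all genes passed.

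**Figure D4:**
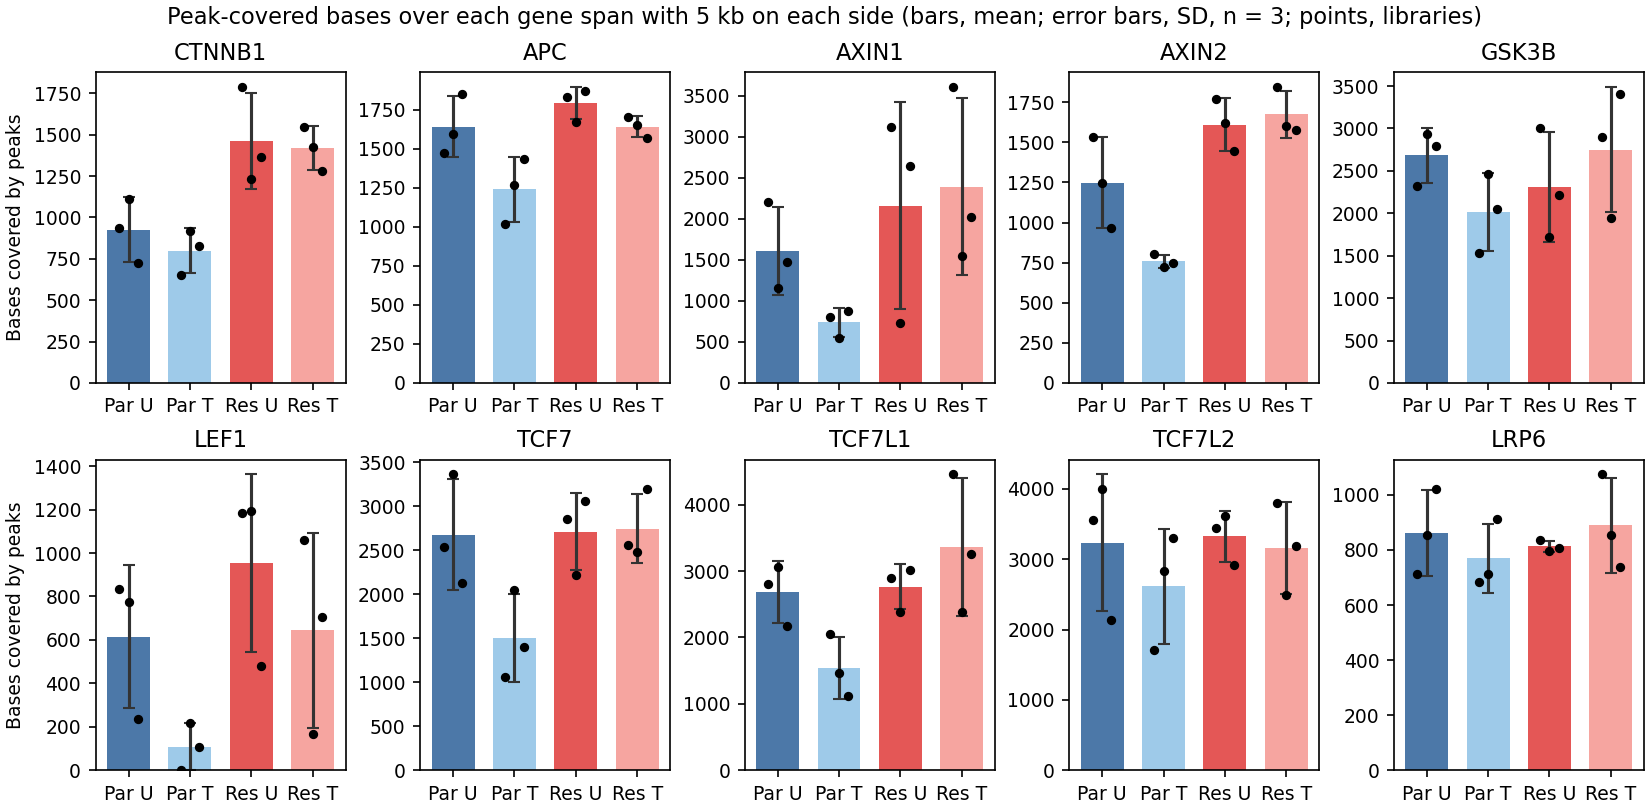
Bases covered by peaks over each gene span with 5 kb on each side, for untreated (U) and treated (T) parental (Par) and resistant (Res) libraries; bars are means, error bars the SD of 3 libraries and points the libraries. At CTNNB1 the 6 resistant points lie above the 6 parental points, and at each of the other 9 genes the phenotypes overlap.

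No member passed the test of oxamate treatment. All 10 genes covered fewer bases on average in treated libraries, with a median log2 ratio of -0.21 over the 10 genes against -0.25 over all genes, and as bases per Mb 7 were higher and 3 lower. In total 0 of 10 passed (exact permutation within phenotype, Benjamini-Hochberg over 32581 genes) and 1 of 10 had an unadjusted p under 0.05, where the shares of all genes were 0% and 12.9%. That gene was APC, lower by 276.0 bases on treatment (exact permutation p = 0.0100, adjusted p = 0.314) and higher by 1.330 bases per Mb. Limma called 0 of 10 for treatment as well, against 0.150% of all genes. LEF1 had the largest log2 difference there, at -1.22 ± 0.44 (SE), and did not pass (limma adjusted p = 0.162). In parental cells every treated library lay below every untreated library at 6 of the 10 genes, namely APC, AXIN1, AXIN2, LEF1, TCF7 and TCF7L1, a pattern met by 30.8% of all genes. In resistant cells it was met by 0 of the 10, against 4.78% of all genes.

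The difference between both responses was tested as an interaction, and 0 of 10 genes passed, with 1 at an unadjusted p under 0.05, against 0% and 4.41% of all genes (exact permutation). This was TCF7L1, with 2812, 3070 and 2175 bases in untreated parental, 2049, 1461 and 1112 in treated parental, 2900, 2384 and 3021 in untreated resistant, and 4460, 2384 and 3257 in treated resistant libraries. Its untreated and treated means were 2686 and 1541 bases in parental and 2768 and 3367 bases in resistant cells, an interaction of 1744 bases (exact permutation p = 0.0400, adjusted p = 0.839). Limma called 0 of 10 for the interaction, against 0.0215% of all genes. Every treated resistant library lay above every treated parental library at 5 of the 9 genes, namely APC, AXIN1, AXIN2, TCF7 and TCF7L1, a pattern met by 44.1% of all genes, and at 0 of 9 between untreated groups, against 16.7%.

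The 18 member regions called in 12 libraries allowed their strength to be compared. The strongest were the GSK3B promoter region (chr3:120093971-120095965), at a strength percentile of 96.6 ± 1.16 in parental and 97.7 ± 0.737 in resistant libraries (SD, n = 6), and a region inside TCF7L2 (chr10:113073557-113074611), at 96.8 ± 1.08 and 94.8 ± 1.19. By phenotype 0 of the 17 regions beside CTNNB1 passed (exact permutation, Benjamini-Hochberg over 24148 shared regions) and 6 of 17 had an unadjusted p under 0.05, where the shares of all shared regions were 0% and 24.0%. Of these 6, 5 were weaker in resistant lists and 1 stronger.

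The 5 lower regions were in TCF7L2, TCF7 and AXIN2. Within TCF7L2, the strong internal region differed by -2.01 percentile points (exact permutation p = 0.0100, adjusted p = 0.0928), and the one over the inner start (chr10:113126506-113127039) was at 93.9 ± 3.35 and 87.0 ± 2.36 with the same p values. In TCF7 the regions chr5:134145588-134146595 (83.8 ± 4.12 and 76.0 ± 3.43) and chr5:134140347-134141499 (73.2 ± 8.64 and 62.8 ± 4.76) had exact permutation p of 0.0150 and 0.0450 and adjusted p of 0.110 and 0.188. The AXIN2 promoter region (chr17:65560763-65562135) was at 69.5 ± 9.71 and 59.2 ± 5.29 (exact permutation p = 0.0200, adjusted p = 0.126). As log2 of the fold, these 5 regions differed by -0.15 to 0.01 between phenotypes, negative at all but a TCF7L2 region (0.01), and none passed (exact permutation, adjusted p = 0.338 to 0.908).

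The exception was LRP6, whose gene-end region (chr12:12266682-12267535) was the only recurrent region of the co-receptor gene. Its fold was 10.6, 8.11 and 7.27 in untreated parental, 4.73, 6.26 and 6.01 in treated parental, 9.60, 9.51 and 11.0 in untreated resistant, and 10.7, 8.06 and 11.3 in treated resistant libraries. The treated parental libraries were the lowest, and the other groups overlapped. Its strength was 84.9 ± 11.2 on the parental and 94.3 ± 2.46 on the resistant side (exact permutation p = 0.0250, adjusted p = 0.139), and its log2 fold was higher by 0.52 (exact permutation, adjusted p = 0.0910). By treatment 0 of 18 regions passed, and 1 of 18 had an unadjusted p under 0.05, against 0% and 8.96% of shared regions. This was again the AXIN2 promoter region, lower by 9.44 percentile points on treatment (exact permutation p = 0.0200, adjusted p = 0.5).

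**Figure D5:**
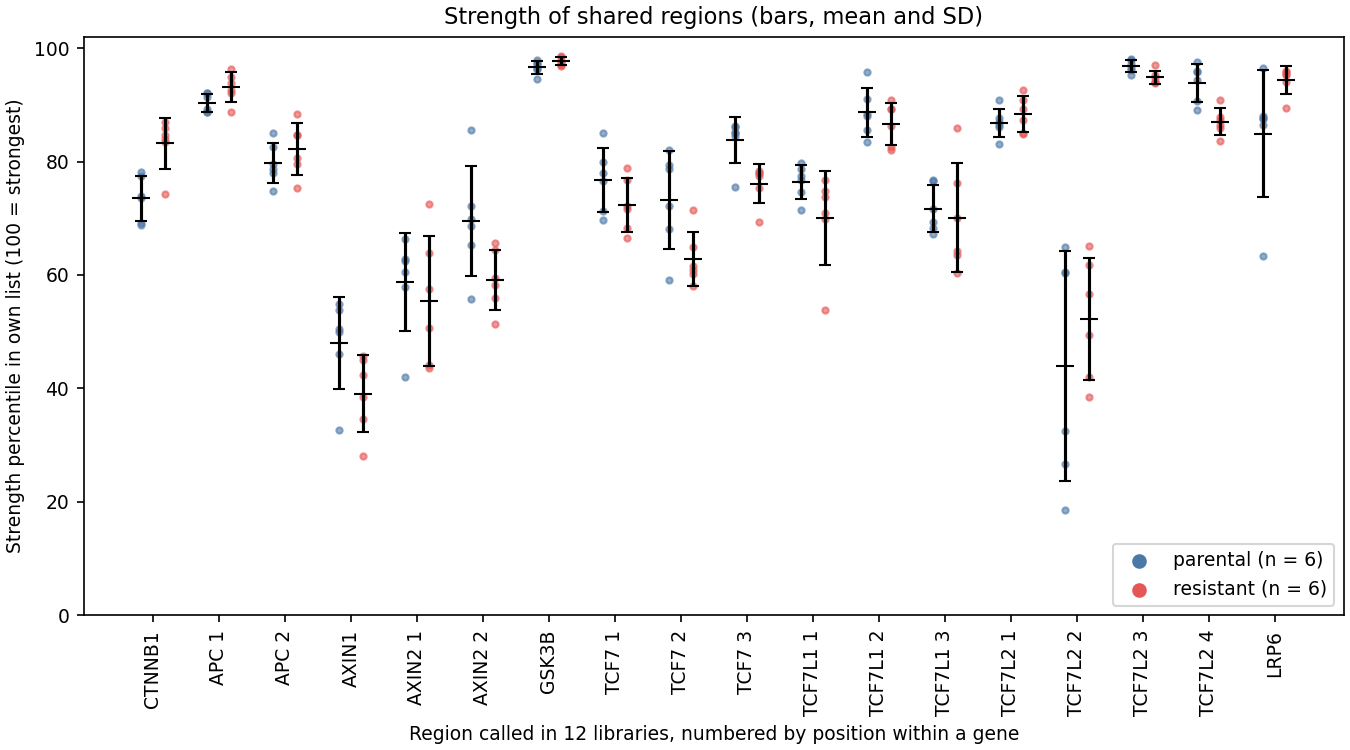
Strength percentile within its own list (100 is the strongest peak) of the 18 member regions called in 12 libraries, for 6 parental (blue) and 6 resistant (red) libraries; points are libraries and bars the mean and SD. The CTNNB1 promoter and LRP6 regions sat higher in resistant libraries, at 83.2 and 94.3 against 73.5 and 84.9, as did the second TCF7L2 region at 52.3 against 44.0. The AXIN2 promoter region was at 59.2 against 69.5 and the AXIN1 region at 39.1 against 48.0, and none of the 17 regions beside CTNNB1 passed the test.

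The wider pathway was described with 97 further genes, of which 90 had a peak in at least 3 libraries. By phenotype 10 of the 90 covered more bases in resistant libraries at an adjusted p under 0.05 and 0 fewer (exact permutation), near the 10.3% of all genes, and as bases per Mb 0 passed. The 10 included 3 of 18 ligand genes tested, 4 of 14 receptor genes, 1 of 11 destruction complex genes, 1 of 6 corepressor genes and 1 of 8 target genes. Among these 10, the largest relative differences were at the ligand genes WNT3, WNT6 and WNT9A and the Frizzled receptor gene FZD6. WNT3 covered 0 to 1093 bases in parental and 1346 to 3204 in resistant libraries, WNT6 0 to 669 and 572 to 1109, WNT9A 764 to 1913 and 2190 to 2893, and FZD6 120 to 738 and 639 to 920. All 4 had the smallest p the design allows (exact permutation p = 0.005, adjusted p = 0.0485). By treatment 0 of 90 passed, with 18 lower and 0 higher at an unadjusted p under 0.05 where 12.9% of all genes had one in either direction. As bases per Mb 4 were lower and 3 higher at that level. The share of all genes per Mb is not given here, so that count is not read as a result about these genes. By interaction 0 of 90 passed, and 1 had an unadjusted p under 0.05, against 4.41% of all genes (exact permutation). The median log2 ratio of this list was 0.48 for resistant over parental and -0.32 for treated over untreated libraries, against 0.43 and -0.25 for all genes. One of the 97 genes, the ligand gene WNT9B, held a region called in 6 resistant and 0 parental libraries (chr17:46876435-46876845), with a fold of 3.51 to 6.26, well below that of CTNNB1. This region also lay inside LRRC37A2, so it cannot be assigned to WNT9B alone. Over the genome 0.117% of regions had this pattern. The share of all genes that held such a region was not counted.

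At the 5 kb limit that defined the members, the outermost CTNNB1 region kept (chr3:41245432-41245554, fold 3.26 in 1 resistant library) straddled the edge, and the next one (chr3:41247205-41247328, fold 3.21 in 1 parental library) began 1762 bp beyond it. The nearest region left out at any member was 416 bp beyond the TCF7 limit, in 1 resistant library with a fold of 3.22, and at AXIN1 a region of 1 resistant library with a fold of 2.85 lay 829 bp beyond. At TCF7 a region of 12 libraries with a median fold of 4.82 lay 970 bp beyond the other limit.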

How the data were processed

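ATAC-seq libraries of 4 groups, 3 each, were grouped by sample title. Per the labels and the study's methods, the authors aligned reads to hg38 with Bowtie2 2.1.0, discarded mitochondrial reads, duplicates and reads without a unique position, and ran MACS2 per library in paired-end mode for broad peaks; its version is not given in the sources used here. The deposited lists give each peak a score, a fold (ratio) over local background, and -log10 of the p-value and q-value. The deposited score and -log10 p were not tested, and depth is unknown, so no counting interval was derived. Relative depth was read from the most frequent fold and p of each list and its smallest peak width.

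Peaks on 23 chromosomes were used (0.892% of 677901 left out). Gene spans came from RefSeq (GRCh38, without exons or, for this table, strand). Regions were overlapping peaks merged over 12 lists. Covered bases were tested by two-sided exact permutation within the other factor (400 assignments, smallest p 0.005) for genes with a peak in at least 3 libraries, presence by Fisher's exact test, and strength by the same permutation, all adjusted by Benjamini-Hochberg over all features (Python 3.11.15, SciPy 1.17.1). Limma 3.58.1 in R 4.3.3 (pseudocount 100) was added later. The scripts were tested on simulated data. P-values measure the spread between these libraries, which may be technical. The members, lists and tests were chosen with earlier results of these data known. All 10 members were named, with at most 4 further pathway genes per contrast and direction by relative difference, those with an all-or-none region between phenotypes, and the 3 strongest other regions of that kind. Alternatives were a stricter -log10 q (minimum 3), equal list lengths (45748 peaks), peaks at least 124 bp wide, bases per Mb, spans extended by 0 or 10 kb, coding genes only, 50% overlap, log2 fold, the replicate number as a block, and each library left out in turn. AXIN2 and LRP6 were not matched to a promoter window. A marker locus is not reported here.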

Additional observations from a re-analysis of the deposited data

How the results depend on the processing

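The exact-permutation count of 0 of 9 called genes by phenotype became 4 at a -log10 q minimum of 3 (APC, AXIN2, TCF7L1 and TCF7L2), 2 with the same number of peaks per list (APC and TCF7L1) and 2 with limma (AXIN2 and TCF7L1), where 31.1%, 20.6% and 29.1% of all genes tested were called, against 10.3% without these changes; the cause was not tested. It stayed at 0 under the other 7 alternatives. Among these, 0% of all genes were called per Mb, without the 5 kb extension and with the replicate block. Those runs therefore cannot show stability of the members. In the rest of the 7 the share of all genes was 7.00% to 11.9%. Leaving out a library gave 0 to 1, the 1 being AXIN1 without resistant untreated replicate 2, where 20.4% of all genes were called. Without resistant treated replicate 2 the share was 11.0%, and without any other library 0% of all genes were called. The counts of 0 called by treatment, by interaction, in presence and in strength stayed at 0 under every alternative run, leaving out each library included. By treatment and interaction, exact permutation of covered bases called 0% of all genes in each of these runs too, which does not set the members apart. The 3 all-or-none calls, 2 at the CTNNB1 region and 1 in AXIN1, became 9 when a peak had to cover at least 50% of the merged region, while the calls over all regions, summed in the same way over the 4 comparisons, went from 6941 (3.90% of the 178040 regions) to 9646 (5.42%), and leaving out a library, which loosens the rule to 2 of 2, gave 3 to 6: 5 without parental untreated replicate 1, parental treated replicate 2, resistant untreated replicate 3 or resistant treated replicate 1, and 6 without resistant treated replicate 2. Calls over all regions under the 2 of 2 rule were not counted, so that rise is not read as a result about members. The CTNNB1 internal region kept 6 resistant and 0 parental libraries, but the 4 filters remove only weak or narrow peaks and test neither.

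None of the values that turned sign had been called. Per Mb, the phenotype difference was -8.449 at APC, -24.50 at GSK3B, -24.34 at TCF7L2 and -10.05 at LRP6, and with limma on centred libraries -0.19, -0.35, -0.26 and -0.39 on the log2 scale. By treatment it was per Mb 5.978 at CTNNB1, 1.330 at APC, 0.4920 at AXIN2, 13.10 at GSK3B, 5.291 at TCF7L1, 8.843 at TCF7L2 and 6.846 at LRP6, and with limma on centred libraries 0.17 at CTNNB1, 0.02 at APC, 0.18 at GSK3B, 0.08 at TCF7L2 and 0.25 at LRP6. By construction bases per Mb remove the difference in total covered bases, and centring removes the shift of the median gene. Without the 5 kb extension LRP6 differed by -36.83 bases by phenotype, and by treatment CTNNB1 by 119.3 and LRP6 by 34.17 bases, while a 10 kb extension gave 24.83 at LRP6. The treatment difference at CTNNB1 was 31.17 bases at a -log10 q minimum of 3 and also with the same number of peaks per list, which gave 13.83 at AXIN1. Leaving out a library moved LRP6 between -11.67 and 74.92 bases by phenotype and between -55.00 and 31.58 by treatment, and GSK3B between -280.2 and 83.75 by treatment.

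Same-numbered libraries of different groups had deviations that correlated at -0.180 to 0.253, over 0.1 in 2 of 18 pairs, and 5 of 12 libraries correlated best with their own number. Pairs of unlike number correlated at -0.280 to 0.187. The labels do not say whether the numbers pair the libraries, and these correlations cannot settle it. With the replicate number as a block, 0 members were called by phenotype, treatment, interaction, presence and strength, as without it. For covered bases this run called 0% of the 32581 genes by phenotype, treatment or interaction. Blocks of 2 libraries leave few label assignments, so these counts of 0 cannot show that the result is stable. Depth limits what absence means: a region not called in a library may lie below the threshold of that list. At the resistant-only CTNNB1 region the parental libraries, which lacked the peak, were 1.33 to 2.77 in relative depth against 1.00 to 1.85.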

Other observations

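The CTNNB1 internal region shared a feature with the strongest other regions of its pattern, chosen after the values were seen. Of the 209 regions called in 6 resistant and 0 parental libraries, the 11 strongest by median fold were 374 to 404 bp wide. In 10 of these 11, including CTNNB1, the peak started and ended within 1 bp in all 6 libraries, and 0 of the remaining 198 did so. In the region inside NKAIN2, which was the exception, the ends varied by 8 bp. The twelfth region, inside MAP3K5, had a median fold of 6.44, starts that varied by 140 bp and ends that varied by 243 bp.

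Such fixed borders were rare elsewhere. Of 35882 regions called in at least 6 libraries with 1 peak per library, 311 (0.867%) had both borders within 1 bp, and their median fold was 14.1 and median width 221 bp, against 4.82 and 634 bp over all 35882. Of these 311, 98 were called in 12 libraries, 10 in 6 resistant and 0 parental and 9 in 6 parental and 0 resistant libraries. Among the 26 member regions of this kind the CTNNB1 internal region was the only one, and the next smallest spread was at the LRP6 gene-end region, with starts that varied by 36 bp and ends by 167 bp. What gives these regions their fixed borders was not tested, nor was whether their peaks stand for accessible chromatin at these places.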
